A study of Rattus norvegicus with 35 samples.

Results

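The retina of the adult female Sprague-Dawley rat was examined 12 h after intraorbital optic nerve transection (IONT), the earliest time at which the transected retinas were sampled, and set against the retina of naive rats, which had undergone no manipulation. The comparison takes 6 of the 35 arrays of the series, the 3 IONT 12 h arrays by their labels and naive replicates 1 to 3, because these share with them the level of the β-actin control probe sets. Naive replicates 4 and 5, the remaining naive arrays, served as a check. Every array was hybridized with RNA pooled from the left retinas of 4 animals, a different set of animals for each array, so that the p-values below describe the spread between pools. In IONT the nerve was cut close behind the eye through an opened dura mater, which leaves the blood supply in place. A further pair of groups of 3 arrays each was used for direct differences, retinas 12 h after intraorbital nerve crush (IONC), made farther from the eye, and retinas 48 h after IONT. The naive rats were not operated on, so the lesion of the axons cannot be told apart here from the surgery on the orbit. The tissue was whole retina, without the optic nerve beyond the eye.

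The axons of all retinal ganglion cells leave the eye through the optic nerve, and their transection cuts every one of these neurons off from its targets in the brain. Ganglion cells are a small minority of the cells of the retina, while Müller glia, astrocytes and microglia respond to the injury with a reactive state, for which the intermediate filament protein Gfap is the usual sign. Cytokines of the interleukin 6 and ciliary neurotrophic factor family act in the injured retina through the shared receptor gp130, Janus kinases and the transcription factor Stat3. The mRNA levels below are those of a whole tissue, in which fewer cells of a type and less RNA per cell cannot be told apart.

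The values are log2 signals per probe set, and a difference of 1 is a doubling. Of 31042 probe sets tested with limma, 892 (2.87%) were called, 483 higher (1.56%) and 409 lower (1.32%) in IONT 12 h retinas. A call required a change of at least 1.2-fold, a Benjamini-Hochberg adjusted p under 0.01 and a log odds of change (B) above 0. With 1 probe set for each of 14217 named genes, 535 genes (3.76%) were called, of which 308 were higher (2.17%) and 227 lower (1.6%). These shares are the background for the counts of called members of each gene list below. The increases were larger than the decreases, with a median of 1.10 over the called increases and of -0.73 over the called decreases. At least 4-fold changes comprised 68 increases and 12 decreases, and the median difference over all genes was 0.0074. Fitted on the 6 arrays alone, without the other time points to estimate the spread, the count was 338 probe sets, 257 of them among the 892. Leaving out naive replicate 2 gave 562 calls and leaving out naive replicate 3 gave 585.

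The β-actin control probe sets differ between 3′ and 5′ end by an amount that follows how far the labelled RNA reaches towards the 5′ end. The log2 signal of the 3′ minus the 5′ probe set was 1.53 to 1.92 in the IONT 12 h arrays and 1.75 to 1.90 in naive replicates 1 to 3, against 2.98 to 3.19 in naive replicates 4 and 5. The 6 compared arrays correlated with each other at 0.989 to 0.997 over all probe sets, and no pair of arrays held identical values. The labelled tissue showed in its markers, such as Gnat1, the rod transducin, at 13.27 to 13.56 in IONT 12 h retinas and 14.30 to 14.42 in naive replicates 1 to 3. Values below a log2 of 3 lie at the floor of the measurement, where 35.8% of the probe sets stayed on all 8 IONT 12 h and naive arrays. A difference from a group at that floor is a lower bound, which held for 21 of the called increases and 5 of the called decreases.

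**Figure D1:**
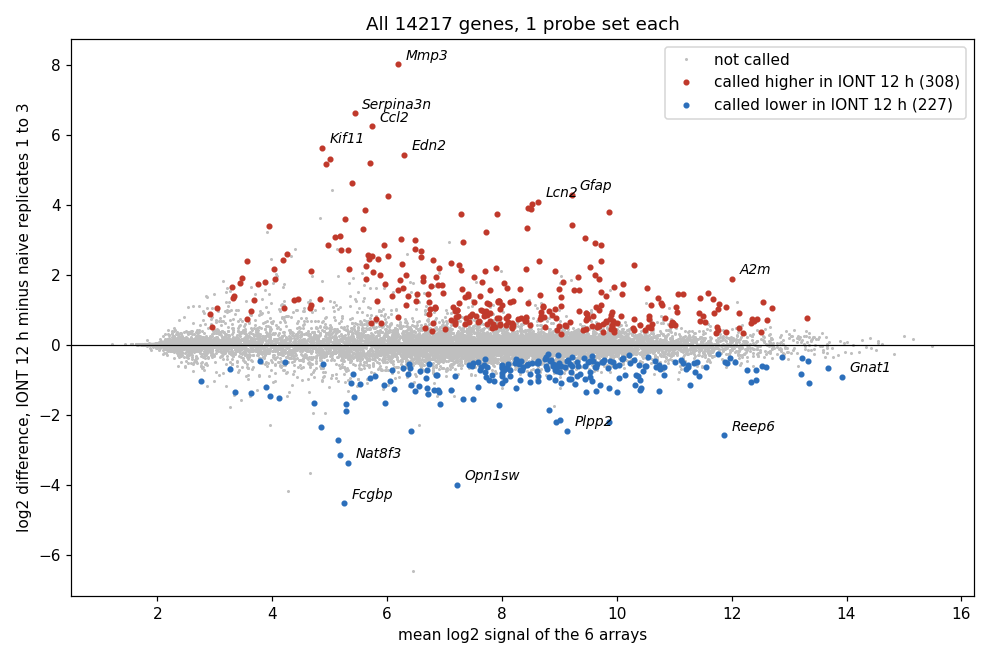
The log2 difference, IONT 12 h minus naive replicates 1 to 3, is plotted for 14217 genes against the mean log2 value of the 6 arrays, with called genes coloured. The 308 genes called higher reach up to a difference of 8.01 (Mmp3) and the 227 called lower down to -4.53 (Fcgbp), and most genes lie around 0.

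The steepest rise was that of Mmp3, which encodes stromelysin-1, a protease of the extracellular matrix. Its log2 values were 9.95, 10.71 and 9.90 in the IONT 12 h arrays, against 2.20, 2.17 and 2.17 in naive replicates 1 to 3. All naive arrays were at the floor, so the difference of 8.01 (standard error 0.57, adjusted p = 2.57e-06) is a lower bound. Serpina3n, a secreted inhibitor of serine proteases and a marker of reactive astrocytes, measured 8.73, 8.58 and 8.90 after IONT, against 2.13, 2.09 and 2.18 in naive retinas, likewise a lower bound (6.6, standard error 0.44, adjusted p = 1.44e-06). Ccl2, the chemokine that attracts monocytes, had values of 9.28, 8.63 and 8.64 in IONT 12 h retinas and 2.81, 2.39 and 2.65 in naive retinas, a rise of at least 6.23 (standard error 0.86, adjusted p = 0.000567). On each IONT 12 h array all of these genes lay far above the naive arrays.

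Edn2, an endothelin that stressed photoreceptors are known to express in mice, reached 8.73, 9.47 and 8.82 in IONT 12 h retinas, against 3.32, 3.47 and 3.95 in naive replicates 1 to 3 (difference 5.43, standard error 0.29, adjusted p = 2.61e-07). In naive replicates 4 and 5 it stood higher, at 5.38 and 5.57, still below all IONT 12 h arrays. It was the called one of 4 endothelin genes measured. Slc26a8, an anion transporter known from sperm, had 6.95, 8.10 and 7.52 after IONT and 2.29, 2.38 and 2.40 in naive retinas, a rise of at least 5.17 (standard error 0.30, adjusted p = 4.69e-07). Kif11, a kinesin motor of the mitotic spindle, rose by at least 5.62 (standard error 0.28, adjusted p = 1.34e-07), and a further probe set of the gene, likewise at the floor in naive retinas, by at least 4.19. On a list of 27 cyclins and mitotic genes, which did not hold Kif11, the called one was Ccnd2, a D-type cyclin that drives entry into the cycle, and the median difference was 0.0056. Ccnd2 measured 10.47, 10.49 and 10.93 in IONT 12 h retinas, against 8.55, 8.69 and 8.65 in naive retinas. Further large increases were those of Depdc7 (4.63), Lad1, a protein that anchors basement membranes (4.24), Mlf1 (3.91), S100a3, an S100 calcium-binding protein (3.86), and LOC102553824, which carries no gene name (5.30), all of them also called against naive replicates 4 and 5.

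**Figure D2:**
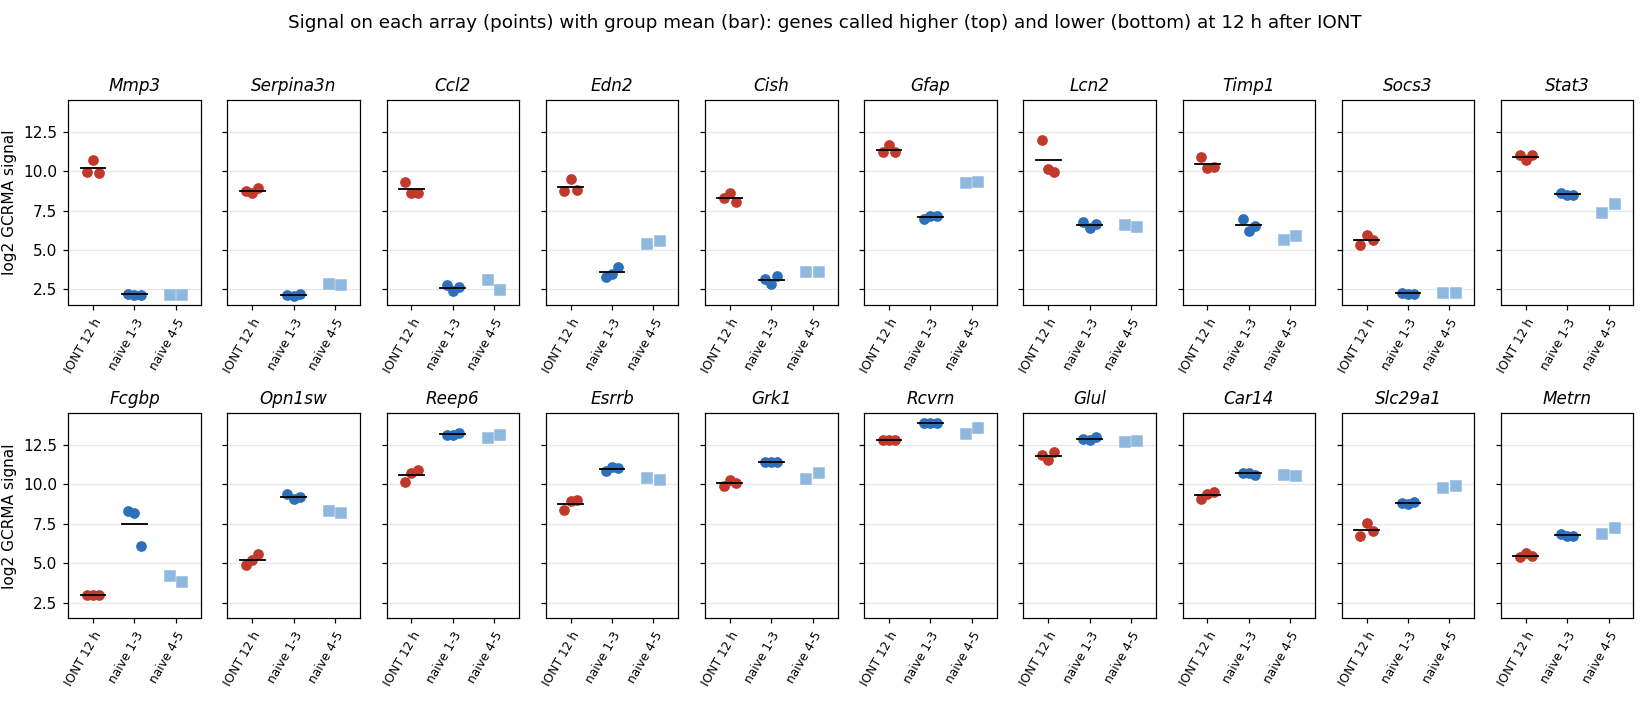
Log2 signal per array is shown for 10 genes called higher (upper panels) and 10 called lower (lower panels) in IONT 12 h retinas, naive replicates 1 to 3 and naive replicates 4 and 5, with a bar at the mean. In the upper panels every IONT 12 h point lies above every naive point, and in the lower panels every IONT 12 h point lies below them.

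A receptor, a kinase, the transcription factor and feedback inhibitors of the Janus kinase and Stat pathway rose. Il6st, the gp130 receptor subunit, measured 11.24, 11.16 and 11.06 in IONT 12 h retinas, against 9.98 to 10.12 in naive replicates 1 to 3 (difference 1.12, standard error 0.08, adjusted p = 2.99e-06). Stat3 itself had values of 11.04, 10.72 and 11 after IONT and 8.62, 8.46 and 8.50 in naive retinas (difference 2.40, standard error 0.19, adjusted p = 6.14e-06), and Jak3, a Janus kinase best known from lymphocytes, rose by 2.09. Socs3, which blocks gp130 receptors in a feedback loop, was at 5.34, 5.96 and 5.63 in IONT 12 h retinas and at the floor in naive retinas, at 2.26, 2.23 and 2.23 (at least 3.40, standard error 0.16, adjusted p = 1.19e-07). Cish, the member of the same inhibitor family that follows Stat5, stood at 8.30, 8.59 and 8.02 after IONT, against 3.18, 2.82 and 3.34 in naive retinas (difference 5.19, standard error 0.42, adjusted p = 7.34e-06), and a further probe set, at the floor in naive retinas, gave at least 5.52. Pias1, a SUMO ligase, fell by 0.61. These made 4 increases and 1 decrease among 20 genes of the pathway, against 2.17% and 1.6% of all genes, and the median difference of the 20 was 0.02. In a related list Il6st was the called one of 12 gp130 cytokines and receptors. The ligands of the pathway on the list did not pass the call. Il6, Lif, Il11 and Ctf1 lay at the floor in both groups and Osm close to it. Cntf and Clcf1 were higher by 0.80 and 0.59 without a call (limma, adjusted p = 0.0696 and 0.208).

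Stat dimers bind the letters TTC and GAA spaced by 3 bases, and such letters stood in the promoters of Cish and of other called genes. The promoters are windows from 250 bases before to 50 bases after the start of the gene (RefSeq, assembly GRCr8), and 11700 of the 14217 genes matched one. The letters TTCNNNGAA, searched on both strands, occurred in 34 of 256 promoters of genes called higher (13.3%) and in 7 of 187 of genes called lower (3.74%), against 6.99% of the promoters of measured genes and 8.68% of all 27457 promoters. The stricter letters TTCCNGGAA, each match of which is also a match of the first motif, occurred in 5.86% of the promoters of genes called higher, against 1.25% of those of measured genes. Shown are windows around such matches in 5 called genes, on the strand of the gene, with the match in capitals and its first base counted from the start of the gene.
Cish, chr8:116850719-116850746, plus strand, match from position -241: cgcccagttTTCCTGGAAagttcttgga
Cish, chr8:116850840-116850868, plus strand, match from position -119: aagatgcggcTTCCGGGAAgggctgggac
Icam1, chr8:27829728-27829756, plus strand, match from position -107: ggcgcgaggtTTCCGGGAAagtggcccca
Serpina3n, chr6:129088259-129088287, plus strand, match from position -123: tgagtccatgTTCCCAGAAatcatcccgt
Irf9, chr15:33065727-33065755, plus strand, match from position -99: accacgtgatTTCTAGGAActgcacctcc
Irf1, chr10:38417783-38417811, plus strand, match from position -142: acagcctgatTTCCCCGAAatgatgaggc
The Cish and Icam1 windows hold the stricter letters, and the Cish promoter holds 4 matches of the looser motif in all. A match describes the letters and not the binding of a factor, and the shares were not tested.

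Transcription factors of the early injury response rose. Junb, a subunit of the AP-1 factor, was at 9.36, 9.07 and 9.02 in IONT 12 h retinas, against 5.41, 5.23 and 5.65 in naive retinas (difference 3.72, standard error 0.38, adjusted p = 5.02e-05). Fos, its partner, had values of 10.08, 9.58 and 9.88 after IONT and 7.56, 7.50 and 7.29 in naive retinas (difference 2.40, standard error 0.37, adjusted p = 0.00145). Atf3, which injured neurons express as an early sign of axotomy, measured 10.79, 11.01 and 10.65 in IONT 12 h retinas, against 9.32, 9.45 and 9.34 in naive retinas (difference 1.45, standard error 0.13, adjusted p = 1.36e-05). These were the 3 called of 10 AP-1 genes, against 2.17% of all genes called higher. All 10 had positive differences (median 0.27), but 4 of them lay at the floor in both groups, where the sign carries no weight. Jun, the best known of them, did not pass, with 11.63, 12.21 and 12.34 after IONT and 11.48, 11.73 and 11.68 in naive replicates 1 to 3 (adjusted p = 0.485). Its values of 9.36 and 9.73 in naive replicates 4 and 5 lay far below both. Fosl1 measured 6.77, 5.62 and 4.20 after IONT and 2.16 to 2.56 in naive replicates 1 to 3, and its spread left it without a call (adjusted p = 0.0138).

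Egr1, an immediate early transcription factor of active neurons and glia, rose to 10.15, 9.65 and 9.57 in IONT 12 h retinas, against 6.61, 6.61 and 4.91 in naive replicates 1 to 3. Naive replicates 4 and 5 held more of it, 7.85 and 7.51, and against them alone the gene was not called. Zfp36, which speeds the decay of cytokine mRNAs, and Ier3 were the other called genes among 18 immediate early genes (3 higher, median 0.23). Among 15 C/EBP and NF-κB genes, Cebpd, Bcl3 and Cebpb rose and Tnfaip3 fell. Cebpd, a factor of the acute phase response, measured 10.35, 10.52 and 10.74 after IONT, against 6.68, 6.52 and 6.34 in naive retinas (difference 4.03, standard error 0.44, adjusted p = 9.78e-05). Bcl3, a nuclear partner of NF-κB p50 and p52, rose by 3.58. Tnfaip3, which encodes the ubiquitin-editing enzyme that turns NF-κB signalling off, was lower, at 9.63, 10.11 and 9.98 in IONT 12 h retinas and 10.90, 10.92 and 10.92 in naive retinas (difference -1.0, standard error 0.14, adjusted p = 0.000721). Dusp5 and Dusp6, phosphatases that switch off the kinase ERK, rose by 1.25 and 1.23, whereas Dusp14 fell by 0.73, the called genes of 17 of the Ras-ERK list.

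The AP-1 letters TGANTCA were present in 9.77% of the promoters of genes called higher and 3.74% of those of genes called lower, against 5.43% of those of measured genes. For the NF-κB letters GGGNNTTCC the shares were 11.3% and 6.42%, against 6.73%. For the C/EBP letters TTGCNNAA they were 10.9% and 9.63%, against 9.13%, for the cyclic AMP response element TGACGTCA 5.47% and 1.6%, against 2.85%, and for the E-box CACGTG 11.7% and 10.7%, against 8.94%. For the serum response element a single exact sequence without variable letters was searched. This sequence was found in 1 promoter of a gene called higher, that of Egr1, and in 0.0684% of the promoters of measured genes. Other forms of the element were not searched, so their presence in further promoters is not known. Apart from the stricter Stat letters, none of these motifs contains another. The window of Mmp3, the gene with the largest difference, is shown with the AP-1 letters in capitals, together with that of Mt2A, the metallothionein described below.
Mmp3, chr8:12925199-12925227, plus strand, match from position -71: ggaagcaattaTGAGTCAgtttgcgggtg
Mt2A, chr19:10838928-10838956, minus strand, match from position -237: gaaagggggtgTGACTCAgcgcgggggcg

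Several proteases of the extracellular matrix and their inhibitors rose. Beside Mmp3, the list of 21 matrix proteases and inhibitors held 4 further increases and no decrease, against 2.17% and 1.6% of all genes. Its median was 0.01. Timp1, the inhibitor that binds Mmp3 and other metalloproteinases, measured 10.88, 10.20 and 10.24 in IONT 12 h retinas, against 6.96, 6.19 and 6.52 in naive retinas (difference 3.88, standard error 0.31, adjusted p = 5.68e-06). The aggrecan-cleaving proteases Adamts4 and Adamts1 rose by 2.71 and 1.5, and Plat, tissue plasminogen activator, by 1.14. The Plat call was lost with any single array of the 6 left out. A2m, the broad protease trap of the acute phase, was at 12.93, 13.02 and 12.88 in IONT 12 h retinas and at 11.10, 11.12 and 11 in naive retinas (difference 1.87, standard error 0.18, adjusted p = 2.48e-05). Icam1, the ligand for leukocyte integrins, had values of 7.02, 6.63 and 6.27 after IONT, against 3.56, 3.40 and 3.70 in naive retinas (difference 3.09, standard error 0.42, adjusted p = 0.000537). With Sdc4, a heparan sulfate proteoglycan (difference 0.58), it made the 2 called of 25 adhesion and matrix genes. Lamb3, a laminin chain of basement membranes outside that list, fell by 2.36.

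Gfap stood at 11.22, 11.66 and 11.21 in IONT 12 h retinas, against 6.95, 7.16 and 7.13 in naive replicates 1 to 3 (difference 4.28, standard error 0.30, adjusted p = 2.36e-06). Naive replicates 4 and 5, at 9.24 and 9.32, held more of its signal than the other naive arrays and less than any IONT 12 h array. Lcn2, an iron-siderophore-binding protein that reactive astrocytes secrete, measured 11.95, 10.15 and 9.92 after IONT and 6.77, 6.37 and 6.63 in naive retinas (difference 4.09, standard error 0.38, adjusted p = 2.03e-05). IONT 12 h replicate 1 was far above the other 2 arrays for this gene. Of 22 reactive gliosis genes 7 were called higher, against 2.17% of all genes, and 20 of the 22 had positive differences, with a median of 0.83. In both groups 4 of the 22 lay at the floor. The remaining called members were Serpina3n, Timp1, Cp, S1pr3, a sphingosine-1-phosphate receptor (0.93), and Nes, the intermediate filament nestin (0.74). Under the alternatives the number of called gliosis genes ranged from 4 to 12.

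**Figure D3:**
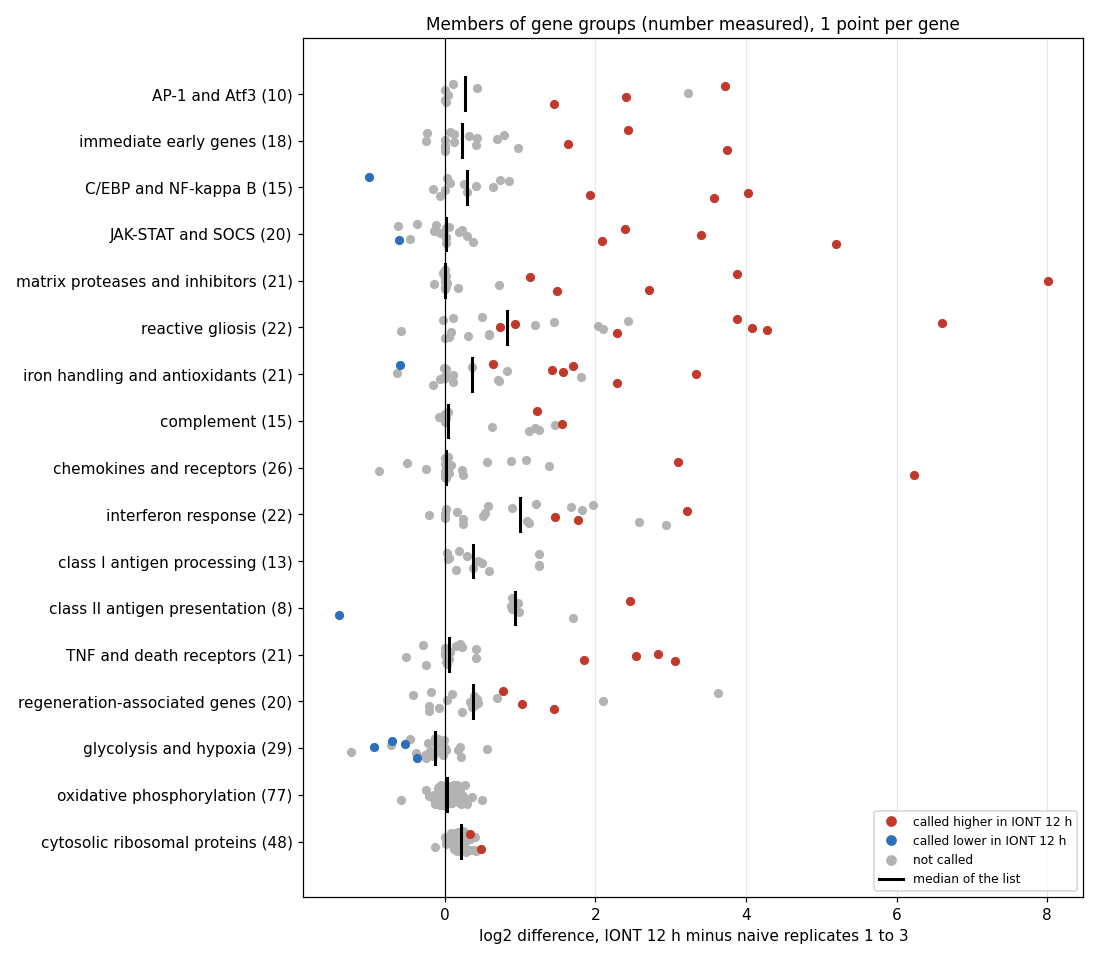
Each point is 1 measured gene, placed by its log2 difference, IONT 12 h minus naive replicates 1 to 3, in 17 functional groups, with a bar at the group's median and called genes coloured. The interferon response (median 0.99), class II antigen presentation (0.94) and reactive gliosis (0.83) stand highest by their medians, and the matrix group has single members far to the right at a median of 0.01.

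Genes of inflammation were led by a few large increases. Cxcl13, which attracts B cells, was besides Ccl2 the other called gene of 26 chemokines and receptors, at 4.98, 7.23 and 7.96 in IONT 12 h retinas, against 3.39, 3.55 and 3.94 in naive retinas. Its call was kept in 1 of the 6 fits that leave out an array. In the complement list of 15 genes, C3, the central component, rose by 1.56 and Serping1, the inhibitor of C1, by 1.23, whereas C1qb and C1qc missed the threshold (differences 1.26 and 1.2, adjusted p = 0.0421 and 0.0108). C3 measured 6.74, 7.11 and 7.09 after IONT and 5.16 to 5.61 in naive replicates 1 to 3, but 6.69 and 6.87 in naive replicates 4 and 5, which overlaps the IONT values. Ctsc and Ctsl, lysosomal proteases, rose by 1.92 and 0.61. Litaf, a factor first found through lipopolysaccharide, had 11.25, 11.02 and 10.69 after IONT, against 8.07, 7.79 and 7.92 in naive retinas (difference 3.06, standard error 0.23, adjusted p = 3.81e-06).

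The list of tumor necrosis factor and death receptor genes held 4 calls among 21 genes, all higher, against 2.17% of all genes. Its median was 0.06, and its largest increase was that of Litaf, given above. Under the alternatives 2 to 4 were called higher. Tnfrsf1a, the main receptor of tumor necrosis factor, measured 7.18, 7.26 and 7.68 in IONT 12 h retinas, against 4.59, 4.63 and 4.38 in naive retinas (difference 2.84, standard error 0.37, adjusted p = 0.000332). Tnfrsf12a, the receptor of the cytokine TWEAK, was at 7.20, 6.91 and 6.90 after IONT and 4.37, 4.91 and 4.12 in naive retinas (difference 2.53, standard error 0.35, adjusted p = 0.000646). Ripk1, a kinase that links Tnfrsf1a to NF-κB or to cell death, rose by 1.84. The ligand Tnf differed by 0.06 and was not called.

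The interferon response list had the highest median of the lists, 0.99 over 22 genes, with positive differences in 21 of them. The list had 2 genes at the floor in both groups and 3 called members. Irf9, the DNA-binding subunit of the interferon-stimulated complex, stood at 9.33, 9.30 and 9.38 in IONT 12 h retinas, against 6.22, 6.0 and 6.12 in naive retinas (difference 3.22, standard error 0.28, adjusted p = 1.26e-05). Ifitm3, a membrane protein that hinders viral entry, rose by 1.78 and Irf1 by 1.46. Gbp2, a guanylate-binding protein, measured 8.66, 8.49 and 8.48 after IONT and 6.29, 5.54 and 5.01 in naive replicates 1 to 3, without a call (adjusted p = 0.0187). All 13 class I antigen processing genes had positive differences (median 0.37), with 0 calls by limma and 7 of them at an unadjusted p under 0.05. In both groups 3 of the 13 lay at the floor. Among 8 class II genes the peptide-binding chain RT1-Da rose by 2.46, at 6.81, 7.68 and 6.73 in IONT 12 h retinas, against 5.85, 4.14 and 3.86 in naive replicates 1 to 3. Ciita, the master regulator of class II transcription, fell by 1.41, at 5.69, 6.04 and 6.31 after IONT and 7.26, 7.44 and 7.56 in naive retinas. Cd74, the class II invariant chain, was at 5.73, 7.04 and 6.6 after IONT and 5.42, 4.40 and 4.45 in naive retinas and was not called (adjusted p = 0.0125).

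Tyrobp, the adaptor of microglial surface receptors (at least 1.90), and Lyz2, lysozyme (1.79), were the 2 that rose of 17 microglial markers, against 2.17% of all genes. Of the 17 markers 14 had positive differences, with a median of 0.95. Their summed linear signal was 725 to 1135 in IONT 12 h retinas, against 351 to 422 in naive replicates 1 to 3 and 385 to 420 in naive replicates 4 and 5, and 4 of the markers were at the floor on all these arrays. The summed signal of 5 neutrophil markers varied within the IONT 12 h group, between 40.5 and 931, against 27.4 to 28.8 in naive replicates 1 to 3. It was carried by S100a9 and S100a8, the calprotectin subunits, with S100a9 at 4.16, 8.35 and 9.25 and S100a8 at 3.29, 5.73 and 8.27 in the IONT 12 h arrays, against 2.72 to 2.94 and 3.03 to 3.07 in naive replicates 1 to 3. Neither was called, and 3 of the 5 neutrophil markers were at the floor everywhere. Markers of T and B cells were at the floor for 8 of 9 genes, with a summed signal of 51.9 to 55.6 in IONT 12 h retinas and 53.1 to 57.4 in naive replicates 1 to 3. The part of these cells in the inflammatory genes was not tested.

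Of 21 genes of iron handling and antioxidants 6 rose and 1 fell, against 2.17% and 1.6% of all genes, with a median of 0.36. Mt2A, a metallothionein that binds zinc and copper, measured 9.73, 10.20 and 10.39 in IONT 12 h retinas, against 6.88, 6.77 and 6.68 in naive retinas (difference 3.33, standard error 0.22, adjusted p = 1.1e-06). Cp, ceruloplasmin, the copper-dependent ferroxidase, was at 11.62, 11.52 and 11.20 after IONT and 9.19, 9.04 and 9.25 in naive retinas (difference 2.29, standard error 0.19, adjusted p = 7.7e-06). Nfe2l2, the transcription factor of the antioxidant response, rose by 1.57, and its known targets Srxn1 and Txnrd1 by 1.70 and 0.64. Slc11a2, the importer of ferrous iron, rose by 1.43 and Tfrc, the transferrin receptor, fell by 0.60. Ahr, the receptor for aromatic hydrocarbons, stood at 9.08, 9.0 and 8.24 in IONT 12 h retinas, against 5.96, 5.83 and 5.78 in naive retinas (difference 2.92, standard error 0.22, adjusted p = 4.16e-06). A further probe set of Ahr lay at the floor in both groups and showed no difference (0.01). The other 6 genes of its list were not called. Of these, 4 lay at the floor in both groups, the classical targets Cyp1a1 and Cyp1b1 among them, so their missing calls say nothing of a response.

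The chaperones Hsph1, Hspe1 and Hsp90ab1 rose by 0.73, 0.50 and 0.38, the called 3 of 13 heat shock genes (median 0.38), against 2.17% of all genes called higher. Hspb1, the small heat shock protein of injured neurons and glia, measured 8.52, 9.27 and 9.31 in IONT 12 h retinas, against 6.98, 7.82 and 6.01 in naive retinas, and missed the call (adjusted p = 0.0124). The integrated stress response split, with 2 of 20 genes higher, Nupr1 (3.31) and Atf5 (0.97), and 3 lower, Ddit3 (-0.54), Sesn2 (-0.93) and Ddit4 (-1.28). Trib3 had the largest decrease of the list (-1.45) but missed the call by its brightest probe set (limma, adjusted p = 0.0117). Further probe sets of Trib3 were called lower (-1.61 and -2.13). The Nupr1 and Sesn2 calls were kept in none of the 6 fits that leave out an array. Of 21 endoplasmic reticulum chaperones Sdf2l1 rose, by 1.38. None of 18 serine, folate and asparagine synthesis genes, 23 amino acid transporters or 18 aminoacyl-tRNA synthetases was called by limma, with 7, 10 and 6 of them at an unadjusted p under 0.05.

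Genes of the mitochondrial death pathway gave few calls. Bbc3, which encodes the p53-induced killer protein Puma, measured 6.82, 7.34 and 7.24 in IONT 12 h retinas, against 5.67, 5.90 and 6.09 in naive retinas (difference 1.25, standard error 0.22, adjusted p = 0.00381), the called one of 17 genes of the Bcl-2 family. Its call was kept in 2 of the 6 fits that leave out an array. Of 13 caspases and their inhibitors 0 were called and 0 had an unadjusted p under 0.05. Gadd45g and Gadd45a, stress-induced growth arrest genes, rose by 2.17 and 1.03. Clu, clusterin, an extracellular chaperone, was at 13.97, 13.57 and 13.55 after IONT and 12.93, 12.89 and 12.96 in naive retinas (difference 0.77, standard error 0.11, adjusted p = 0.000956).

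Of 20 genes associated with axon regeneration 3 rose, against 2.17% of all genes. They were Atf3, Gadd45a and Vgf, the precursor of neuropeptides released by active neurons. Vgf measured 8.25, 8.38 and 8.25 in IONT 12 h retinas, against 7.53, 7.50 and 7.54 in naive retinas (difference 0.77, standard error 0.13, adjusted p = 0.00252). Gap43, the growth cone protein, differed by 0.34 and was not called. Sprr1a, a protein of regenerating axons and also of stratified epithelium, was at 4.49, 9.06 and 6.41 in the IONT 12 h arrays and 2.59 to 3.89 in naive replicates 1 to 3 (adjusted p = 0.059). Krt14, a keratin of stratified epithelium named after its values were seen, showed the same order among the IONT 12 h arrays, 3.97, 8.87 and 6.64, against 3.35 to 3.97 in naive replicates 1 to 3. The part of epithelial tissue in the Sprr1a values was not tested. Among 25 neurotrophic and growth factors limma made 0 calls, with 7 at an unadjusted p under 0.05. The largest difference was that of Fgf2, a growth factor of photoreceptor survival, at 4.47, 3.79 and 3.30 in IONT 12 h retinas and 2.42, 2.53 and 2.99 in naive retinas (adjusted p = 0.0241).

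Photoreceptor genes were among the largest decreases. Opn1sw, the short-wavelength opsin of cones, was at 4.86, 5.18 and 5.60 in IONT 12 h retinas, against 9.39, 9.04 and 9.21 in naive retinas (difference -4.00, standard error 0.19, adjusted p = 1.34e-07). Reep6, an endoplasmic reticulum protein of rods, measured 10.12, 10.70 and 10.91 after IONT and 13.10, 13.14 and 13.26 in naive retinas (difference -2.59, standard error 0.23, adjusted p = 1.4e-05). Esrrb, a nuclear receptor that sustains rods in mice, had 8.37, 8.91 and 9.03 in IONT 12 h retinas and 10.82, 11.10 and 11 in naive retinas (difference -2.21, standard error 0.27, adjusted p = 0.000234). All 3 genes also lay below naive replicates 4 and 5 on every IONT 12 h array.

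Enzymes and transducers of the rod cascade fell by less. Of 20 rod markers 4 fell, against 1.6% of all genes, and 17 had negative differences (median -0.23). Grk1, a receptor kinase of photoreceptors, measured 9.87, 10.25 and 10.10 in IONT 12 h retinas, against 11.38, 11.41 and 11.42 in naive retinas (difference -1.33, standard error 0.20, adjusted p = 0.00106). Rcvrn, recoverin, its calcium sensor, stood at 12.81, 12.82 and 12.80 after IONT, against 13.91, 13.86 and 13.91 in naive retinas (difference -1.08, standard error 0.11, adjusted p = 4.08e-05). Gnat1, the rod transducin α subunit, fell by 0.92 and Slc24a1, the rod sodium-calcium exchanger, by 0.90. In cones, Gnat2 and Gngt2, transducin subunits, fell by 0.57 and 0.75 together with Opn1sw, whereas Gnb3, the cone transducin β subunit, rose by 0.88, which makes 3 of 8 cone markers lower and 1 higher. The other cone opsin Opn1mw differed by 0.57 without a call (adjusted p = 0.285).

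Photoreceptor transcription factors and disc proteins moved both ways. Otx2, the homeobox factor of photoreceptor fate, fell by 0.72, Rom1, a disc rim protein, by 0.65 and Aipl1, a phosphodiesterase chaperone, by 0.62. Fscn2, the retinal fascin that bundles actin in outer segments, rose instead, to 10.48, 10.79 and 10.62 in IONT 12 h retinas, against 8.71, 8.78 and 8.79 in naive retinas (difference 1.87, standard error 0.13, adjusted p = 1.86e-06). Impg2, a proteoglycan of the matrix between photoreceptors, and Prom1, a disc protein, rose by 1.19 and 0.67. With Reep6 these were 3 higher and 4 lower of 17 genes. The summed linear signal of the 20 rod markers was 210900 to 224700 in IONT 12 h retinas, against 248400 to 255100 in naive replicates 1 to 3 and 221200 to 236300 in naive replicates 4 and 5, and the highest IONT 12 h value exceeded the lower value of naive replicates 4 and 5. The letters TAATCC of the photoreceptor factor Crx occurred in 6.42% of the promoters of genes called lower, near the 5.54% of those of measured genes. The window of Opn1sw, the marker with the largest decrease, is shown with these letters in capitals.
Opn1sw, chr4:58945914-58945943, minus strand, match from position -106: ctaagagatctcTAATCCcggactttgctg

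Several of the largest decreases belonged to none of the lists. Plpp2, a phosphatase of lipid phosphates, measured 7.70, 7.92 and 8.12 in IONT 12 h retinas, against 10.45, 10.26 and 10.41 in naive retinas (difference -2.46, standard error 0.20, adjusted p = 6.85e-06). Pitpnm3, a membrane-associated phosphatidylinositol transfer protein, was at 7.78, 8.08 and 7.97 after IONT and 10.08, 10.14 and 10.06 in naive retinas (difference -2.15, standard error 0.13, adjusted p = 5.61e-07). The chromatin remodelling gene Smarcd1, of the SWI/SNF complex, fell by 2.21, Susd3 by 1.88 and Slc29a1, the equilibrative transporter of adenosine and other nucleosides, by 1.73. Metrn, meteorin, a secreted factor of glial differentiation, measured 5.36, 5.61 and 5.47 in IONT 12 h retinas, against 6.82, 6.75 and 6.72 in naive retinas (difference -1.28, standard error 0.11, adjusted p = 8.48e-06). All of these genes were also called lower against naive replicates 4 and 5. Of the other large decreases, Hhatl (-2.71) was called against those arrays too, whereas Nat8f3 (-3.38), Rgs22 (-3.14) and Miox, myo-inositol oxygenase (-2.47), were not.

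The numerically largest called decrease, that of Fcgbp, rested on uneven naive arrays. Fcgbp, an Fc-binding protein of mucus, was at 2.99, 2.95 and 2.99 in IONT 12 h retinas, against 8.27, 8.15 and 6.10 in naive replicates 1 to 3 and 4.21 and 3.78 in naive replicates 4 and 5, and it was not called against naive replicates 4 and 5. Genes of secretory epithelium, named after their values were seen, ran alongside it without a call. Gp2, a glycoprotein of secretory granules, measured 2.59, 4.48 and 2.63 in the IONT 12 h arrays, 10.67, 10.39 and 8.00 in naive replicates 1 to 3 and 5.30 and 2.82 in naive replicates 4 and 5. Muc5ac, a mucin of goblet cells, had 2.19, 2.19 and 2.19 after IONT and 8.03, 7.18 and 3.87 in naive replicates 1 to 3, with 4.63 and 2.15 in naive replicates 4 and 5. Tissue of that kind was not tested for its part in the Fcgbp decrease.

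Of 13 measured Müller glia markers 4 fell, against 1.6% of all genes, and all 13 had negative differences, with a median of -0.37. Under the alternatives 0 to 5 of them were called lower. Glul, glutamine synthetase, which clears glutamate, stood at 11.83, 11.54 and 12.06 in IONT 12 h retinas, against 12.85, 12.81 and 12.97 in naive retinas (difference -1.06, standard error 0.12, adjusted p = 0.000126). Car14, a carbonic anhydrase of the Müller cell membrane, measured 9.08, 9.39 and 9.52 after IONT, against 10.74, 10.74 and 10.58 in naive retinas (difference -1.36, standard error 0.20, adjusted p = 0.00103). Gpr37, an orphan receptor of glia, fell by 0.96 and Car2, the cytosolic carbonic anhydrase, by 0.52. The summed signal of the list was 28350 to 32640 in IONT 12 h retinas, against 42220 to 42650 in naive replicates 1 to 3 and 38000 to 39320 in naive replicates 4 and 5, without overlap.

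For the retinal ganglion cells, the axotomized population, limma called 0 of 18 markers, with 6 at an unadjusted p under 0.05 and 17 negative differences (median -0.37). Their summed signal was 11350 to 12880 in IONT 12 h retinas, against 14550 to 15170 in naive replicates 1 to 3 and 12710 to 13700 in naive replicates 4 and 5, of which the lower one overlapped. Eomes, a factor of ganglion cell development, was at 3.21, 3.59 and 3.20 after IONT and 4.17, 4.45 and 4.03 in naive retinas (adjusted p = 0.0458). Of 6 bipolar cell markers 2 fell, Pcp2 by 0.74 and Prkca, protein kinase C α, by 0.65. Both reversed against naive replicates 4 and 5, where Pcp2 stood at 11.95, 11.97 and 11.81 in IONT 12 h retinas and at 11.65 and 11.82 in those naive retinas. Of 18 amacrine and horizontal cell markers Vip, a neuropeptide of amacrine cells, rose by 0.91. In the endothelial list Kdr, the receptor of vascular endothelial growth factor, fell by 0.49. Lens markers ranged in summed signal from 30630 to 35780 in IONT 12 h retinas and from 25770 to 57670 in naive replicates 1 to 3. Those of the retinal pigment epithelium ranged from 3262 to 6292 in IONT 12 h retinas and from 1812 to 2798 in naive replicates 1 to 3, with 3418 to 5383 in naive replicates 4 and 5, inside the IONT 12 h range.

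**Figure D4:**
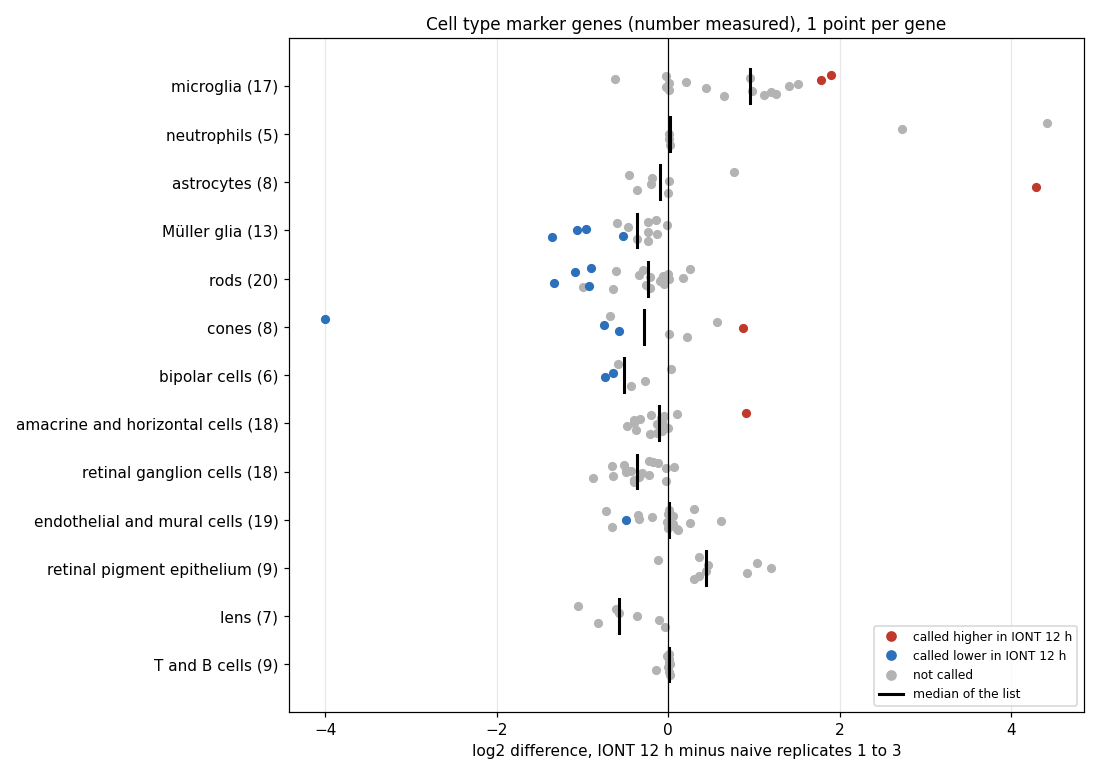
Each point is 1 marker gene, placed by its log2 difference, IONT 12 h minus naive replicates 1 to 3, for 13 cell types or tissues, with a bar at the median and called genes coloured. Microglial markers lie to the right (median 0.95), all 13 Müller glia markers lie left of 0 (median -0.37), and the ganglion cell markers lie mostly left of 0 (median -0.37) without a call.

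Of 29 glycolysis and hypoxia genes 4 fell and 0 rose, against 1.6% and 2.17% of all genes, and 23 had negative differences (median -0.13). The 4 were Pfkfb2 (-0.94) and Pfkm (-0.53), enzymes around the phosphofructokinase step, Slc16a1 (-0.71), a lactate transporter, and Aldoa (-0.37), an aldolase. Under the alternatives 0 to 6 genes of the list were called lower and 0 to 4 higher. The Pfkm decrease turned into an increase of 0.72 against naive replicates 4 and 5. Of 77 oxidative phosphorylation genes limma called 0, with 7 at an unadjusted p under 0.05 and a median of 0.03. Of 48 cytosolic ribosomal proteins 47 had positive differences (median 0.22) and 2 were called, Rpl22 (0.48) and Rps28 (0.33). In both groups 4 of the 48 lay at the floor. Against naive replicates 4 and 5 the calls were 31 for ribosomal proteins and 25 for oxidative phosphorylation, so the extent of these shifts follows the naive arrays chosen. Crystallins, 14 in number, had 0 calls by limma and 0 at an unadjusted p under 0.05.

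Genes of neuronal excitability were called in single cases. Cacnb2, a subunit of voltage-gated calcium channels, fell by 0.54, the called one of 27 ion channel genes (median -0.13), and Cplx3, a complexin of ribbon synapses, fell by 0.49, the called one of 24 synaptic genes (median -0.11). Against naive replicates 4 and 5 the Cplx3 difference turned positive (0.062). Of 21 glutamate, GABA and glycine receptors limma called 0, with 4 at an unadjusted p under 0.05. Among 18 circadian clock genes, 26 genes of TGF-β signalling and 13 of cholesterol synthesis it called 0 as well, with 8, 4 and 1 at an unadjusted p under 0.05. Of 10 glucocorticoid-responsive genes 2 rose, Mt2A and Klf9. Klf9, a zinc finger factor, was at 11.18, 11.31 and 11.22 in IONT 12 h retinas, against 10.64, 10.64 and 10.70 in naive retinas (difference 0.57, standard error 0.07, adjusted p = 0.000173). Of 18 annexins and S100 genes S100a3 and Anxa7 (0.64) rose.

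Set against naive replicates 4 and 5, IONT 12 h retinas differed in 4423 probe sets (14.2%), a count that holds the difference between the array sets as well as the lesion. Of the 892 probe sets called against naive replicates 1 to 3, 808 kept their sign, 531 were called the same way and 13 the opposite way. In 464 of the 535 called genes the 3 IONT 12 h arrays lay beyond all 5 naive arrays on the side of the call, which was the case, on either side, for 18.2% of all genes. The calls themselves rest on these IONT 12 h arrays and on naive replicates 1 to 3, so these counts are not independent of the calls. Among the genes described above, Mmp3, Serpina3n, Ccl2, Edn2, Gfap, Lcn2, Timp1, Cish, Socs3, Stat3, Opn1sw, Reep6 and Glul were called the same way against both sets of naive arrays. Adamts1, C3, Ctsc, Ripk1, RT1-Da, Dusp5, Slc11a2, Rcvrn, Grk1, Otx2 and Tnfaip3 were not called against naive replicates 4 and 5. In the 6 fits that each leave out 1 of the compared arrays, the calls of Adamts1, Lamb3, Dusp14, Ifitm3, Lyz2, Ctsl, Ddit4, Atf5, Gadd45a, Pfkfb2, Prom1, Impg2, Gnb3, Cplx3, Car2 and Kdr were kept in 1 fit, that of Gnat2 in 0 and those of Srxn1, Pfkm, Vip and Vgf in 2. Lcn2, Egr1 and Glul kept theirs in all 6 of these fits but were not called with the 6 arrays alone in the model.

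Crush was compared with transection directly at 12 h to see where the kind and place of the lesion mattered. In IONT 12 h retinas 207 genes were higher (1.46%) and 24 lower (0.169%) than in IONC 12 h retinas. IONC 12 h replicate 2 stands apart, correlating with the others at a median of 0.871 and with a standard deviation over its probe sets of 2.30, against 3.00 to 3.01 in the IONT 12 h arrays. Without it 215 probe sets were higher and 91 lower, in place of 376 and 35, and after cyclic loess normalization 340 were higher and 115 lower. Slc26a8 measured 6.95, 8.10 and 7.52 in IONT 12 h retinas, against 3.66, 2.6 and 3.25 in IONC 12 h retinas (difference 4.35, adjusted p = 5.4e-09), and the difference was 4.07 without that array. Atf3 was at 10.79, 11.01 and 10.65 after IONT and 9.70, 5.06 and 7.88 after IONC (difference 3.27, adjusted p = 0.00167, and 2.03, adjusted p = 0.000289, without IONC replicate 2). Ccnd2 and Bbc3 were higher after IONT by 1.57 and 1.48, and by 1.32 and 1.41 without that array. Cish differed by 2.77, but its call was lost without IONC replicate 2 (difference 2.29, adjusted p = 0.0155).

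Mthfd2 and Chac1 were among the largest of these differences. Mthfd2, a mitochondrial folate enzyme, measured 7.72, 8.35 and 8.24 in IONT 12 h retinas and 5.16, 2.55 and 4.38 in IONC 12 h retinas, beside 8.96, 8.99 and 9.27 in naive replicates 1 to 3. Chac1, a glutathione-degrading enzyme, was at 8.45, 9.02 and 8.56 after IONT and 6.54, 3.16 and 5.33 after IONC, beside 9.70, 9.66 and 10.04 in naive retinas. Both were called without IONC replicate 2 as well (differences 3.34 and 2.74), and neither was called between IONT 12 h and naive retinas. Of the 18 aminoacyl-tRNA synthetases 8 were called between IONT and IONC with IONC replicate 2 in the fit, against 1.46% of all genes called higher and 0.169% called lower, and the named ones among them, Tars1, Lars1, Sars1 and Aars1, were called without IONC replicate 2 as well. Asns, Slc7a1 and Trib3 lost their calls without it. Clcf1, a ligand of the ciliary neurotrophic factor receptor, went the other way, at 4.35, 3.61 and 3.51 in IONT 12 h retinas and 5.80, 5.89 and 5.59 in IONC 12 h retinas (difference -1.94, adjusted p = 4.05e-06). Metrn was lower after IONT than after IONC by 1.34, with IONC values of 6.73, 6.90 and 6.83 that lay at the naive level.

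Between 12 h and 48 h after IONT, 149 genes were higher at 12 h (1.05%) and 72 were higher at 48 h (0.506%). This comparison rests on the same IONT 12 h arrays as the one with naive retinas. Slc26a8 was at 6.95, 8.10 and 7.52 at 12 h and at 2.68, 2.80 and 2.50 at 48 h, at the floor like its naive values of 2.29 to 2.40 (difference at least 4.86, adjusted p = 1.4e-05). Atf3 stood at 9.27, 9.46 and 9.52 at 48 h, around its naive values of 9.32 to 9.45 (difference 1.40, adjusted p = 0.000141). Mmp3 was lower at 48 h, at 5.26, 6.96 and 7.73, but above the floor of the naive arrays (difference 3.54, adjusted p = 0.0053), and S100a3 differed by 3.28. Klf9, a target of the glucocorticoid receptor, and Cry1, a repressor of the circadian clock, were higher at 12 h by 0.71 and 1.39.

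Other genes were lower at 12 h than at 48 h. Ecel1, a neuronal endopeptidase-like protein induced by nerve injury, measured 2.09, 2.09 and 2.97 at 12 h, at the floor as in naive retinas, and 5.71, 5.30 and 5.02 at 48 h, a difference of at least 2.96 (fitted difference -2.96, adjusted p = 0.000131). Vgf was at 8.25, 8.38 and 8.25 at 12 h and 9.61, 9.78 and 9.79 at 48 h (difference -1.43, adjusted p = 0.000131). Metrn was at 5.36, 5.61 and 5.47 at 12 h and 7.01, 6.90 and 7.15 at 48 h (difference -1.54, adjusted p = 2.93e-05). Gfap, Lcn2, Timp1, Ccl2, Socs3, Stat3, Fos, Junb and Cebpd were not called between 12 h and 48 h, with differences between -0.75 (Gfap) and 0.44 (Ccl2).

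**Figure D5:**
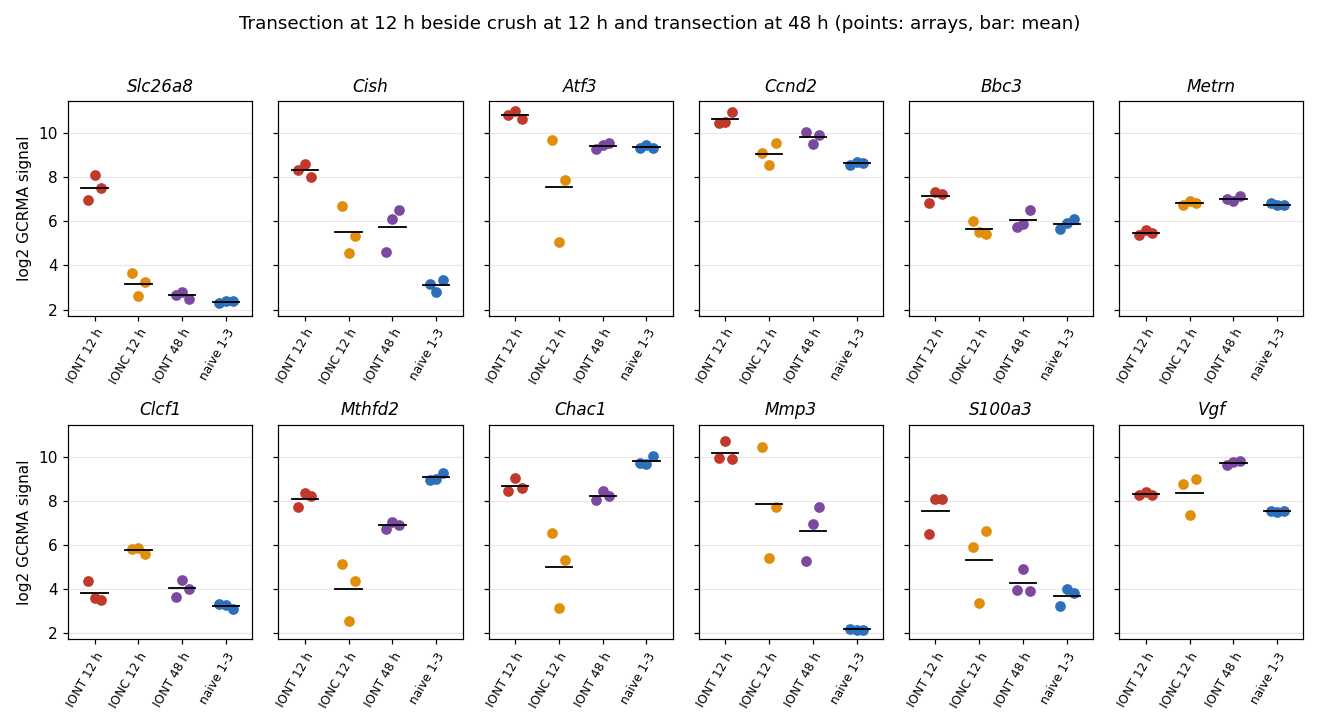
Log2 signal per array is shown for 12 genes in IONT 12 h, IONC 12 h, IONT 48 h and naive replicates 1 to 3, with a bar at the mean. Slc26a8 is high on the 3 IONT 12 h arrays alone (6.95 to 8.10), Clcf1 is high on the IONC 12 h arrays (5.59 to 5.89), and Metrn is low on the IONT 12 h arrays (5.36 to 5.61).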

How the data were processed

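Retinal RNA was hybridized to Affymetrix RAE230.2 arrays. The authors deposited log2 values, 1 per probe set, from GCRMA, which corrects background, equalizes the distributions by quantiles and summarizes the probes. Its version and the arrays it was run on jointly were not given in the sources used here. The equalization precedes the summary of the probes, and the deposited values did not share a common distribution. Their standard deviation was 2.30 in IONC 12 h replicate 2, against 3.00 to 3.01 in the IONT 12 h arrays. Equalization by quantiles can still hide an overall shift in RNA content, which was not tested. The values were analysed as deposited, after removal of 57 control probe sets of 31099. Of the 31042 tested probe sets 20826 carried 1 gene symbol, 436 several and 9780 none in the platform annotation; a gene was represented by its brightest probe set over all 35 arrays. The number of arrays, not a depth, limits precision.

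A linear model was fitted to the 20 naive and IONT arrays in R 4.3.3 by limma 3.58.1 and statmod 1.5.0, with naive replicates 1 to 3 and 4 to 5 as separate coefficients and 12 residual degrees of freedom. The difference between IONT and IONC used all 35 arrays. P-values are limma's, adjusted by Benjamini-Hochberg over all tested probe sets. Calls needed adjusted p under 0.01, B above 0 and a 1.2-fold change, as in the study's methods. The authors' arrays were grouped by their labels; the array sets rest on the β-actin control probe sets and are not labelled as batches. On simulated data for IONT 12 h against naive, with independent normal noise, changes were planted only in probe sets with a naive mean log2 value above 6. Of these, 67 of 100 changed by 1 and 96 of 100 changed by 2 were called. Among unchanged probe sets 2 of 30842 were called, over 31042 probe sets. Recovery at lower signals was not simulated.

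The members and gene lists were chosen with earlier results of these data known. Named genes are the 15 largest called increases and decreases beyond all 5 naive arrays, up to 6 members per list with the largest differences, genes measured by other methods in the study, and the 5 largest differences each way from IONC 12 h and IONT 48 h. Other called list members were named after their values were seen. Alternatives covered the arrays in the fit, the naive arrays, thresholds, a filter on low values, moderation, array weights, centring, cyclic loess, the replicate block, the probe set and each array left out. Promoter sequences are RefSeq's (GRCr8).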

Additional observations from a re-analysis of the deposited data

Results flagged for a closer look

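Among the 5 naive arrays 21 of the 376 named genes held 1 array far from the others (Dixon's test at 95%, which chance alone would flag in about 1 of 20 groups). The count is near that share. In naive replicate 1 these were Mmp3 (2.20), Myl11 (4.52), Ahsp (2.22), Cxcr2 (2.04), Ahrr (2.02), Cyp1a2 (1.93), Cd3d (2.17), Olig2 (2.36) and Bcl2l11 (6.53). In naive replicate 2 they were Fosl1 (2.56) and Alas2 (3.20), in naive replicate 3 Tyrobp (3.01), in naive replicate 4 Zfp36 (3.79), Fscn2 (9.12), Cxcl1 (3.18), Cyp1b1 (2.93) and Cacnb2 (10.36), and in naive replicate 5 Atf5 (8.23), Mcm6 (3.88), Casp4 (2.36) and Metrn (7.25). Many of these values lie at the floor, where the arrays differ by little in absolute terms. Atf5 in naive replicate 5 reached into the IONT 12 h range of 7.96 to 8.33.

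The response to transection differed from that to crush at 12 h for 34 named genes by a direct test of the difference in limma. Higher in IONT 12 h than in IONC 12 h retinas, and called with and without IONC 12 h replicate 2, were Slc26a8 (4.35), Mthfd2 (4.07), Chac1 (3.67), Atf3 (3.27), Sesn2 (2.51), Prc1 (2.19), Ciita (2.12), Jun (2.00), Tars1 (1.83), Lars1 (1.6), Rims2 (1.59), Ccnd2 (1.57), Bbc3 (1.48), Slc1a4 (1.38), Bmal1 (1.26), Sars1 (1.07) and Aars1 (1.03). Lower in IONT 12 h retinas under the same condition were Clcf1 (-1.94), C1qb (-1.66), Tapbp (-1.62) and Metrn (-1.34). Without IONC 12 h replicate 2 the call was lost for Slc7a1 (3.33), Cish (2.77), Trib3 (2.53), Rpe65 (2.40), Asns (1.90), Opn1mw (1.81), Gdf15 (1.43), Grk1 (1.23), Sgk1 (1.21), Tnfaip3 (1.04) and Fscn2 (0.82), and for Nfkb2 (-1.62) and LOC102547703 (-1.38), which were lower in IONT 12 h retinas.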

How the results depend on the processing

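The 892 probe sets called between IONT 12 h and naive retinas numbered 326 with all 35 arrays in the fit, 338 with the arrays of both groups alone (5437 at an unadjusted p under 0.05), 4423 against naive replicates 4 and 5, 1718 at an adjusted p under 0.05 without B, 412 at 2-fold and 1622 with array weights, and 562 to 712 with 1 array left out. The 411 between IONT 12 h and IONC 12 h numbered 0 with those groups alone (limma, 1084 at an unadjusted p under 0.05), 1451 at an adjusted p under 0.05, 3535 with array weights (52.6% higher in place of 91.5%) and 124 to 1738 with 1 array left out. The 124 and 159 came without IONT 12 h replicates 2 and 3, and the 1653 and 1738 without IONC 12 h replicates 1 and 3. The 334 between IONT 12 h and IONT 48 h numbered 62 with all arrays, 0 with those groups alone (4351 at an unadjusted p under 0.05), 1001 at an adjusted p under 0.05, 114 at 2-fold, 990 with array weights, 206 with the replicate block and 86 to 450 with 1 array left out. The 86 and 123 came without IONT 12 h replicates 2 and 3, and 136 to 183 without 1 of the 48 h arrays. The causes of these changes were not tested. The replicate numbers did not pair the samples, with correlations of deviations of -0.08, 0.08 and 0.17 for numbers 1 to 3 and 1 of 3 IONT 12 h arrays closest to its own number. With the replicate block 700 probe sets were called against naive retinas, 658 of them among the 892, and 343 against IONC. Chosen after seeing the data were alternatives that leave out a time point. Without the 48 h arrays in the fit 756 probe sets were called and without the 7 d arrays 732.

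Of 376 named genes 115 were called, and 35 of these kept the call in all 24 alternatives. Of the 2760 values of called genes under alternatives, 428 lost the call with the same sign. Against naive replicates 4 and 5 the difference turned positive for the called genes Cplx3 (0.062), Pfkm (0.72), Prkca (0.13) and Pcp2 (0.17), and for Bmpr2 (2.28), Id3 (1.72), Grin2a (1.89), Cox4i2 (1.92), Stat5b (1.44) and Rbp3 (4.92), which were called against those arrays only. Values near the floor carry no order.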
